A study of Mus musculus with 4 samples.

Results

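The homeodomain and paired-box factors that pattern the embryonic midbrain were followed in single nuclei of the mouse superior colliculus, the dorsal midbrain structure that receives retinal and other sensory input. The set was chosen by gene symbol and held 7 genes, Pax7, Pax3, Pax5, En1, En2, Otx1 and Otx2, of 31053 genes in the count matrix. All 7 symbols were found. The mice were C57BL/6J, with no treatment or genetic change named. They were sampled on embryonic day 19 (E19) or on postnatal day 4, 8 or 21 (P4, P8, P21). Each stage was 1 library of pooled tissue from more than 1 animal, and neither how many animals nor their sex was stated. One label abbreviated the embryonic stage differently from the sample title, and the title's E19 was used. The libraries held 2249 to 2585 nuclei and 19277512 to 31325079 unique molecular identifiers (UMIs, each standing for 1 captured RNA molecule), and the median depth per nucleus went from 6828 UMIs at E19 to 11745 at P21. The authors' deposited annotation gave 9 classes and 35 subtypes, of which 12 were inhibitory (IN1 to IN12) and 13 excitatory (EN1 to EN13). The excitatory subtypes EN1 and EN2 share their letters with the engrailed genes En1 and En2, so they are written as subtype EN1 and subtype EN2.

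In the embryo, Otx2 and its paralogue Otx1 give the forebrain and midbrain their identity in front of the boundary with the hindbrain. Pax5, En1 and En2, together with Pax2, act around that boundary, the isthmic organiser, which signals through FGF8 and WNT1. Pax3 and Pax7 are close relatives that mark the dorsal neural tube, and Pax7 is a classical marker of the tectum. All 7 genes encode transcription factors, which are usually present at few RNA copies per nucleus.

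There was no replicate library at any stage, so no test between stages or classes was made. Levels are UMIs of a gene per 1000000 UMIs of the pooled class or subtype (CPM) and are therefore relative to all nuclear RNA of those nuclei. Intervals in brackets are 95% Poisson intervals for CPM or 95% Clopper-Pearson intervals for shares of nuclei, and both cover counting error only. Ratios described as called were at least 2-fold after 5 CPM had been added to both values. The annotated inhibitory and excitatory classes carried their own markers. Summed CPM of Gad1, Gad2 and Slc32a1 was 680 to 950.3 in the inhibitory class and 34.6 to 58.6 in the excitatory class, and that of the vesicular glutamate transporters Slc17a6, Slc17a7 and Slc17a8 was 12.7 to 49.3 and 179 to 289. The epithelial and vascular leptomeningeal labels were less clear by markers. In epithelial nuclei Foxj1, Ttr, Folr1 and Kl, of ependymal and choroid cells, summed to 0 to 111 CPM. Col1a1, Col1a2, Dcn and Lum, of leptomeningeal cells, summed there to 638 to 1083 CPM. In leptomeningeal nuclei the latter sum was 1787 CPM at P8, and Aqp4, Slc1a3, Gja1 and Aldoc, of astrocytes, summed to 2882 CPM. At E19 these sums were 3364 and 3160 CPM. Of the 9724 nuclei, 18 carried a barcode that occurred in a second library as well (9 barcodes).

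The 7 genes were present at very unequal depth. Otx2 gave 5553 UMIs in 2623 nuclei, Pax3 3717 UMIs in 1137 nuclei and Pax7 3551 UMIs in 1546 nuclei. Pax5 followed with 561 UMIs in 171 nuclei. En2 (255 UMIs), Otx1 (212 UMIs) and En1 (140 UMIs) were close to the detection limit, and 87.4% to 92.8% of their positive nuclei held a single UMI. Inhibitory neurons held 91.3% of the Pax7 UMIs and 81.7% of the Otx2 UMIs. Astrocytes held 59.5% of the Pax3 UMIs. The E19 library held 94.5% of the Pax5 UMIs and 82.1% of the En1 UMIs, although it was the shallowest library.

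Pax7 lies at chr4:139737062-139833528 on the minus strand (GRCm38, GENCODE M21, identifier ENSMUSG00000028736) and overlaps no other annotated gene. Otx2 (ENSMUSG00000021848, chr14:48657677-48673819, minus strand) overlaps the opposite-strand transcript Otx2os1, which was counted separately and was far more abundant, at 980 to 2280 CPM in inhibitory neurons. Pax5 (ENSMUSG00000014030, chr4:44524757-44710487, minus strand) overlaps Gm12462 on the other strand. Strand use in the counting was not stated, so whether UMIs from the overlapping parts of these genes were told apart could not be checked. Pax3 (ENSMUSG00000004872, chr1:78101267-78197134, minus strand), En1 (ENSMUSG00000058665, chr1:120602418-120607992, plus strand), En2 (ENSMUSG00000039095, chr5:28165694-28172166, plus strand) and Otx1 (ENSMUSG00000005917, chr11:21994764-22002897, minus strand) overlap no other gene of the matrix.

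Among neurons, 3 of the 7 factors were concentrated in the inhibitory class at every stage. Pax7, Pax3 and Otx2 were called higher in inhibitory than in excitatory neurons in all 4 libraries. They were also the only members that reached the 5 CPM needed for this comparison in all libraries. Over all genes that reached it, 46 of 10247 (0.449%) were called in the same direction. None of the 3 was called lower, against 0.42% of all genes. With 20 CPM added in place of 5, Pax7 and Otx2 were still called and Pax3 was not.

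Otx2 in inhibitory neurons was 137 CPM (E19), 102 (P4), 179 (P8) and 95.5 (P21). In excitatory neurons the values were 11.97, 7.25, 7.05 and 4.24 CPM, so the classes did not overlap at any stage. The ratio was 11.5-fold at E19 [9.56 to 13.8], 14.1-fold at P4, 25.4-fold at P8 and 22.5-fold at P21 [17.4 to 29.6]. Pax7 was 126, 98.3, 111 and 55.7 CPM in inhibitory neurons against 1.23 to 3.64 CPM in excitatory neurons.

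Pax3 was lower in neurons, with 32.0 CPM (E19), 51.8 (P4), 19.6 (P8) and 33.5 (P21) in the inhibitory class. In excitatory neurons it stayed between 1.82 and 2.46 CPM. The smallest inhibitory over excitatory ratio was 10.8-fold at P8 [7.05 to 17.2] and the largest 22.7-fold at P4 [15.9 to 33.3]. Only 6.99% to 10.1% of inhibitory nuclei held a Pax3 UMI, against 1.49% to 2.64% of excitatory nuclei. In the pooled vascular, epithelial and microglial nuclei, which were shallower, it was 0.893% to 3.62%, with intervals that overlapped those of the excitatory share in each library.

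Excitatory nuclei with one of the rare Pax7 UMIs had a higher pooled sum of inhibitory markers. Summed CPM of the 3 inhibitory markers was 114 in the 39 excitatory nuclei with a Pax7 UMI at E19 and 57.0 in the 1299 without. At P21 it was 247 in 11 nuclei and 27.1 in 671, and 8 of the 18 Pax7 UMIs lay in 1 nucleus. Shares of nuclei with a Gad1 or Gad2 UMI differed less. At E19 they were 33.3% [19.1 to 50.2] with Pax7 and 25.6% [23.3 to 28.1] without. At P21 they were 45.5% [16.7 to 76.6] and 33.2% [29.7 to 36.9]. These intervals overlapped in each library. The part of mixed droplets or shared free RNA in these values was not tested. The Pax7 share in excitatory neurons, 1.49% to 2.91%, was close to the 0.755% to 2.49% of the pooled non-neuronal background classes. That pool included the oligodendrocyte lineage here. Its nuclei were shallower, with a median of 4396.5 against 8051.5 UMIs at E19 and 6694.5 against 19601 at P21, so the shares are not at equal depth.

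**Figure D1:**
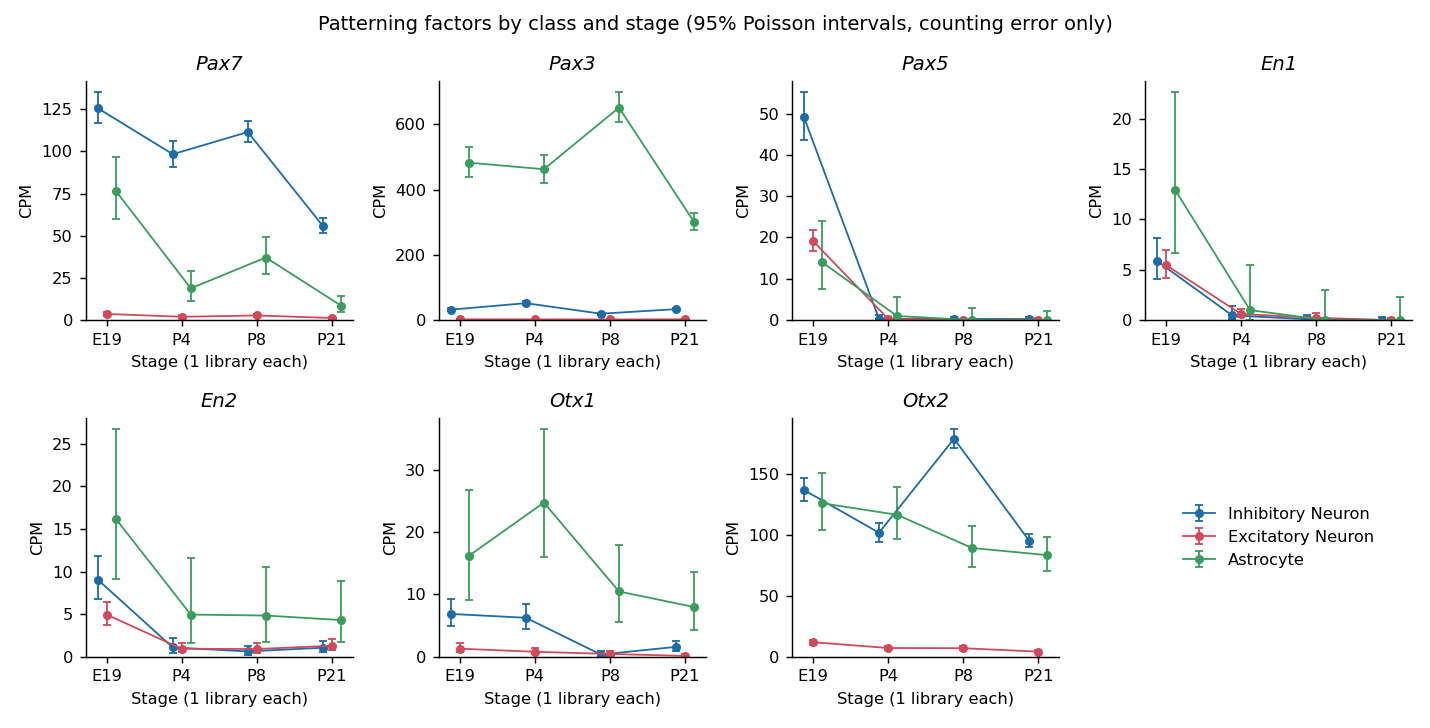
Level of each factor (CPM, linear axis from 0) at the 4 stages in inhibitory neurons, excitatory neurons and astrocytes; points are single libraries and bars 95% Poisson intervals. Pax7 and Otx2 lie high in inhibitory neurons, Pax3 in astrocytes (301 to 651 CPM), and Pax5 and En1 are near 0 after E19.

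Astrocytes carried a different combination, in which Pax3 and Otx2 led. Pax3 was 483 CPM (E19), 462 (P4), 651 (P8) and 301 (P21), and 61.0% to 87.6% of astrocyte nuclei held a UMI. These levels were 15.1-fold, 8.92-fold, 33.3-fold and 8.97-fold above those of inhibitory neurons. Otx2 was 126, 117, 89.5 and 83.6 CPM in astrocytes. At E19, P4 and P21 this differed from inhibitory neurons by less than the counting error, with ratios of 0.921 [0.752 to 1.12], 1.14 [0.933 to 1.40] and 0.875 [0.727 to 1.05]. Only at P8 was it lower, at 0.499 [0.408 to 0.604].

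At E19, 5 of the 7 factors (Pax7, Pax3, En2, Otx1 and Otx2) were called higher in astrocytes than in excitatory neurons. Over all genes, 15.1% were called in this direction. With 20 CPM added in place of 5, the count was 3, and En2 and Otx1, with 15 UMIs each in astrocytes, were then not called. Otx1 in astrocytes was 16.2 CPM (E19), 24.8 (P4), 10.5 (P8) and 7.995 (P21), which was above its level in inhibitory neurons in every library (6.88, 6.26, 0.361 and 1.59 CPM). Astrocyte nuclei held 65.2 to 98.3 CPM of the 3 inhibitory markers in sum. This sum was similar in E19 astrocytes with an Otx2 UMI (104 CPM [74.1 to 142]) and without one (94.2 CPM [70.4 to 123]).

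Dividing cells, of which there were 36, 25, 35 and 10, carried Pax3 and Otx2 as well. Their Pax3 was 344 CPM (E19), 277 (P4), 226 (P8) and 183 (P21). Otx2 in the same nuclei was 141, 115, 39.1 and 33.3 CPM, the last value resting on 2 UMIs. Pax7 was 66.0 CPM in dividing cells at E19 [36.1 to 111] and rested on 3 UMIs or fewer at each later stage.

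The subtypes of the inhibitory class separated Pax7 from Otx2. Averaged over libraries, 4 subtypes had more than 100 CPM of both genes (IN4, IN9, IN11 and IN12). Another 4 had more than 100 CPM of Otx2 but not of Pax7 (IN3, IN5, IN7 and IN10). IN6 and IN8 had more than 100 CPM of Pax7 only, and IN1 and IN2 of neither, with Pax7 in IN2 just under the line at 99.0 CPM. The cut at 100 CPM was chosen after the values were seen and is a description.

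IN5 and IN6 lay far apart in this plane. IN5 had 390 CPM of Otx2 (E19), 241 (P4), 239 (P8) and 91.9 (P21), and only 19.6, 15.4, 6.02 and 6.12 CPM of Pax7. IN6 had 16.6, 10.7, 12.3 and 4.76 CPM of Otx2 and 186, 117, 103 and 105 CPM of Pax7. In each library the values of these 2 subtypes differed by more than 5-fold for both genes. IN2 resembled IN6, with 9.79 to 28.6 CPM of Otx2 and 49.96 to 170 CPM of Pax7.

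The order of Otx2 levels ran from IN3 (324 CPM, mean of 4 libraries) and IN7 (312) through IN12 (283), IN4 (259), IN5 (241), IN9 (191), IN11 (176) and IN10 (138) to IN8 (76.9), IN1 (47.1), IN2 (18.5) and IN6 (11.1). The ranges over libraries overlapped for 9 of the 11 pairs of neighbours. The steps from IN10 to IN8 and from IN1 to IN2 were the exceptions. For Pax7 and Pax3 the ranges of all 11 neighbouring pairs overlapped, although IN12 was above IN6 and IN10 above IN5 for Pax7, and IN4 above IN2 for Pax3, in each of the 4 libraries. Across 40 units of library and inhibitory subtype with 30 or more nuclei, centred within each library, log2(CPM + 5) of Pax7 and Otx2 had a Pearson r of -0.05. The units of one subtype recur across libraries, so this value is a description.

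**Figure D2:**
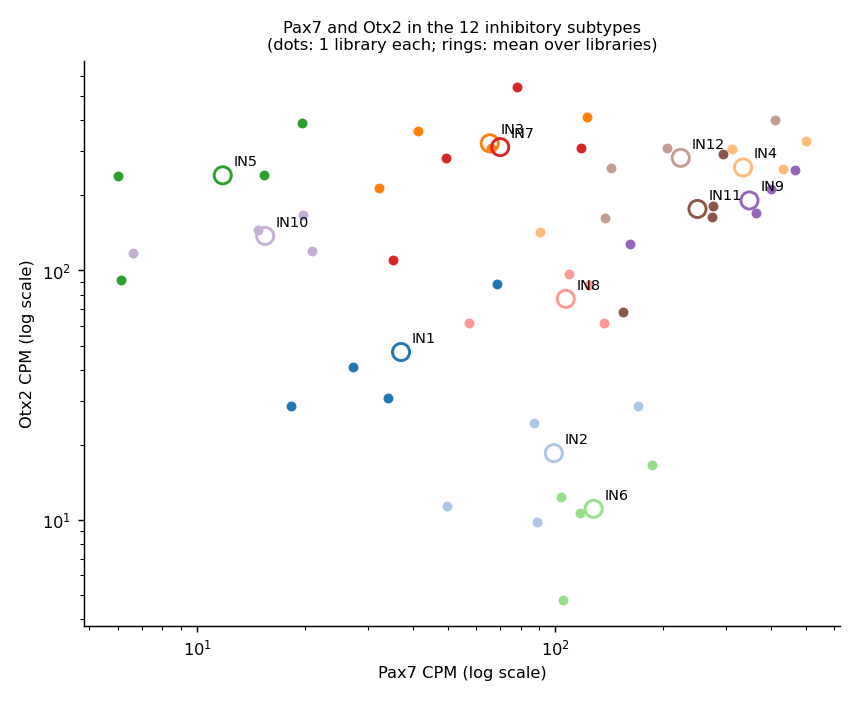
Pax7 level (x axis, CPM, log scale) against Otx2 level (y axis, CPM, log scale) in the 12 inhibitory subtypes; each dot is 1 library and each ring the mean over libraries. IN4, IN9, IN11 and IN12 lie at the upper right, IN5 and IN10 at the upper left, and IN2 and IN6 at the lower right.

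The shares of nuclei with UMIs of both genes followed these subtype levels. In IN5, 1 to 6 nuclei per library held UMIs of both genes, and 63.0% to 76.9% held Otx2 without Pax7. In IN6, 42.6% to 54.9% held Pax7 without Otx2, and 1 to 4 nuclei per library held both. In IN9, both genes were found together in 46.9% to 67.6% of nuclei, and in IN4 in 41.0% to 59.0%. Over the whole inhibitory class 15.7% of nuclei held both genes (E19), 16.4% (P4), 25.8% (P8) and 22.8% (P21). In nuclei thinned to 2000 UMIs it was 5.599%, 4.61%, 4.04% and 2.03%, and no rise with stage remained.

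Within the inhibitory class, a Pax7 UMI did not mark nuclei with more of the other factors in all libraries. None of the 6 other members was called at 1.5-fold higher in nuclei with a Pax7 UMI in every library. Only Pax3 and Otx2 reached the 5 CPM needed, and over all genes 0.138% were called. Neither was called lower, against 0.0982% of all genes. Otx2 was 177 CPM in nuclei with Pax7 at E19 and 119 in those without, and 130 against 89.3 at P4. At P8 the order was the opposite, 143 against 209 CPM, and at P21 it was 85.8 against 102 CPM. When the nuclei without Pax7 were weighted to the subtype make-up of those with it, their Otx2 became 175 CPM (E19), 133 (P4), 181 (P8) and 93.4 (P21). The difference at E19 and P4 was then within the counting error of the nuclei with Pax7. At P8 Otx2 stayed lower in the nuclei with Pax7 (143 CPM [133 to 154]) than the weighted 181 CPM. Within single subtypes with 10 or more nuclei on each side, Otx2 was higher with Pax7 in 6 of 6 at E19, 3 of 8 at P4, 2 of 10 at P8 and 5 of 8 at P21. Some of the E19 differences were small or rested on few UMIs. IN1 had 44.5 against 40.6 CPM, IN4 334 against 319, and IN6 3 UMIs against 2. IN8 had 131 against 85.0 CPM.

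Pax3 and Pax7 were found together in few inhibitory nuclei. Of nuclei with a Pax7 UMI, 11.1% [7.79 to 15.1] held Pax3 at E19, against 5.46% [3.76 to 7.62] of those without. The shares were 11.3% against 8.37% at P4, 8.53% against 5.86% at P8 and 13.04% against 8.16% at P21. The share was thus higher with Pax7 in each library, with intervals that were apart only at E19. After thinning to 2000 UMIs the E19 shares were 5% and 4.49%, within counting error. Weighted to the same subtypes, Pax3 was lower in nuclei with Pax7 in all 4 libraries (48.4 against 61.8 CPM, 38.8 against 60.8, 22.3 against 37.0 and 35.3 against 50.4). These weighted values rest on subtype IN11, where few nuclei lacked Pax7 (6, 10, 11 and 3) and those had 302, 229, 124 and 317 CPM of Pax3. Without IN11 the values were 51.6 against 46.1 CPM (E19), 42.7 against 44.1 (P4), 22.7 against 30.3 (P8) and 38.5 against 24.9 (P21), so the direction turned at E19 and P21. In IN1, pooled Pax3 was higher with Pax7 in each library (161 against 26.3 CPM, 170 against 96.1, 142 against 84.5 and 262 against 149). With Pax7, these values came from only 3, 8, 4 and 6 nuclei with a Pax3 UMI. Shares of IN1 nuclei with Pax3 were 15.8% against 4.05% (E19) and 36.4% against 10.4% (P4). They were 19.0% against 16.1% (P8) and 31.6% against 27.5% (P21). Over single subtypes Pax3 was higher with Pax7 in 3 of 6 at E19, 3 of 8 at P4, 1 of 10 at P8 and 6 of 8 at P21. Subtypes with no Pax3 UMI on either side (IN6 at P4, IN6 and IN8 at P8) counted as not higher. Several others rested on very few UMIs. At P21, IN3 had 2 UMIs with Pax7 against 1 without, IN6 1 against 0 and IN8 0 against 1.

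**Figure D3:**
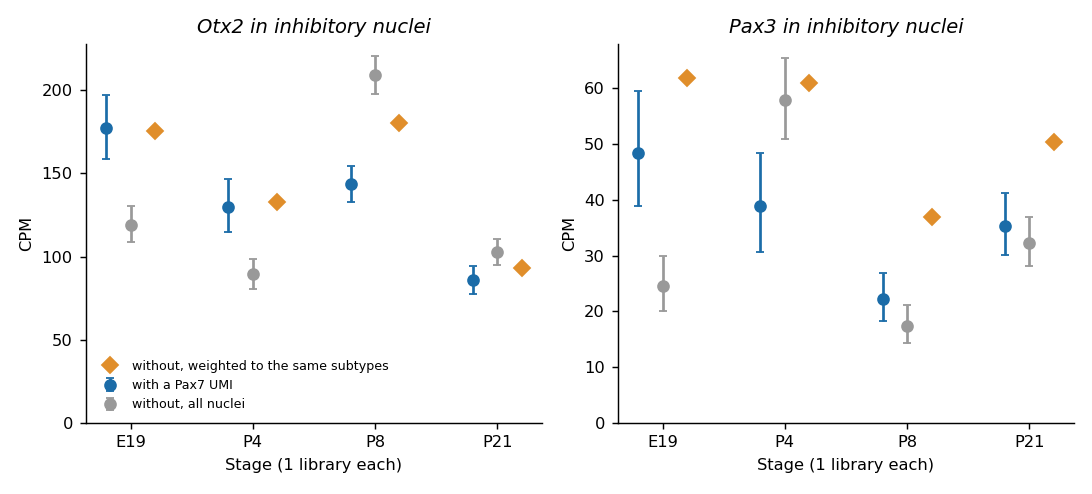
Level of Otx2 and Pax3 (CPM, from 0) in inhibitory nuclei with a Pax7 UMI (blue), in all those without (grey) and in those without after weighting to the same subtype make-up (orange), by stage; bars are 95% Poisson intervals, and the weighted values have none. For Otx2 the weighted value at E19 (175 CPM) lies beside the value with Pax7 (177 CPM); the weighted Pax3 values rest on the few IN11 nuclei without Pax7.

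In astrocytes at E19 and P4, Pax7 went along with Pax3. Pax3 was found in 41 of 49 astrocyte nuclei with a Pax7 UMI (83.7% [70.3 to 92.7]) and in 84 of 147 without (57.1% [48.7 to 65.3]). The level was 706 CPM in the former and 403 in the latter. Otx2 was 186 CPM with Pax7 and 105 without. At P8 neither held: Pax3 was 642 against 653 CPM and Otx2 81.5 against 91.1 CPM. At P4, the 14 astrocytes with Pax7 had more Pax3 (704 CPM [510 to 949]) than those without (447 CPM [405 to 492]) and less Otx2 (49.1 against 121 CPM). At P21 there were 12 such nuclei, with 361 against 298 CPM of Pax3, within counting error.

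Pax7 and Otx2 were lower at P21 than at E19 in most inhibitory subtypes. Pax7 was lower at P21 than at E19 in 11 of 12 subtypes and called lower in 8, with IN1 the exception (27.3 CPM at E19 and 34.0 at P21). In IN4 it was 500.5 CPM (E19), 432 (P4), 312 (P8) and 90.8 (P21). Otx2 was lower at P21 in all 12 subtypes and called lower in 7. In IN7 it went from 546 CPM at E19 through 311 and 282 to 110.1 at P21. The median log2 ratio of P21 over E19 across subtypes was -1.12 for Pax7 and -1.09 for Otx2.

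At the level of the whole class, 4 of the 7 factors (Pax7, Pax5, En1 and En2) were called lower in inhibitory neurons at P21 than at E19, and 10% of all genes were called in this direction. No member was called higher at P21, against 5.1% of all genes. Otx2 was not called at class level (log2 ratio -0.50). The make-up of the class differed between libraries. Subtype IN1, which has little Pax7 and Otx2, made up 29.8% of inhibitory nuclei (E19), 27.8% (P4), 4.78% (P8) and 9.46% (P21). Without IN1, Pax7 was 189 CPM (E19), 147 (P4), 115 (P8) and 59.1 (P21), each lower than the one before. Otx2 without IN1 was 199.6, 147, 186 and 105 CPM. Without IN1 the members called lower at P21 were Pax7, Pax3 and En2, and Pax5 (log2 ratio -0.83) and En1 (-0.73) were not called. The count with 20 CPM added was 1, namely Pax5.

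The class value of Otx2 was 1.76-fold higher at P8 than at P4 [1.61 to 1.92]. Of the 12 subtypes, 7 were higher at P8, with a median log2 difference of 0.18. From E19 to P4 and from P8 to P21, none of the 12 was higher at the later stage. Whether such steps reflect stage or library cannot be told apart with 1 library per stage.

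Pax3 went a different way in subtype IN1. It was 36.7 CPM (E19), 105 (P4), 108 (P8) and 179 (P21), with a log2 ratio of P21 over E19 of 2.14. The UMIs were concentrated in few nuclei: 13 of 266 at E19, 27 of 205 at P4, 9 of 52 at P8 and 20 of 70 at P21. At P21, 15 nuclei with 5 or more UMIs held 95.9% of the 268 UMIs, and 1 nucleus held 47. The astrocyte markers Aqp4, Slc1a3, Gja1 and Aldoc summed to 18.9 CPM [8.66 to 35.9] in IN1 nuclei with Pax3 at P21 and 44.0 CPM [32.1 to 58.9] in those without. At E19 the sums were 8.12 CPM (1 UMI) with Pax3 and 42.3 without, and at P4 34.3 and 42.1. At P8 the order was the opposite, 70.1 CPM [30.3 to 138] and 59.3 [42.2 to 81.1]. The part of astrocyte RNA in the Pax3 level was not tested. IN1 thus held 70.7% of the inhibitory Pax3 UMIs at P21. Outside IN1, Pax3 was 29.0 CPM (E19), 19.6 (P4), 12.997 (P8) and 11.3 (P21).

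Besides IN1, neuronal Pax3 was found in IN9 (56.3 CPM, mean over libraries), IN11 (53.8), IN4 (45.6) and IN2 (23.9). IN9, IN11 and IN4 are the subtypes with the most Pax7. Each of the remaining inhibitory subtypes was at or below 15.99 CPM. Across the 40 centred inhibitory units the Pearson r of Pax3 with Pax7 was 0.36, and with Otx1 0.59.

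Oligodendrocyte precursor nuclei (OPC) also had more Pax3 in the later libraries. Their level was 10.5 CPM at E19 (1 of 46 nuclei), 17.8 at P4 (3 of 42), 42.9 at P8 (15 of 109) and 137 at P21 (23 of 64). The largest number of Pax3 UMIs in 1 precursor nucleus was 5. At P21 the 4 astrocyte markers summed to 153 CPM [89.2 to 245] in precursor nuclei with Pax3 and 149 CPM [98.7 to 215] in those without. At P8 the corresponding sums were 434 CPM [291 to 624] and 276 CPM [229 to 329]. Myelinating oligodendrocytes had 1.28 CPM at P21.

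Pax5 was an E19 gene in these libraries. Inhibitory neurons had 49.1 CPM at E19 [43.7 to 55.1] and 0.265 to 0.313 CPM at the later stages, where 2 or 3 UMIs were found in each library. Excitatory neurons had 19.2 CPM at E19 [16.7 to 21.9] and no more than 0.336 CPM afterwards. The E19 level was 185-fold higher than the P21 level in inhibitory neurons [62.7 to 903] and 140-fold higher in excitatory neurons [38.3 to 1163].

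The E19 Pax5 signal came from a few subtypes. IN1 had 118 CPM, with 277 UMIs in 65 of 266 nuclei and up to 19 in 1 nucleus. EN11 had 82.9 CPM in 10 of 84 nuclei, and subtype EN1 had 30.1 CPM in 44 of 514 nuclei. IN1 held 94.5% of the inhibitory Pax5 UMIs. In the P4 library the same subtypes were nearly empty: IN1 had 2 UMIs in 205 nuclei, and EN11 (52 nuclei) and subtype EN1 (419 nuclei) had 0. For subtype EN1, 0 of 419 nuclei, taken as up to 3, allows a share of nuclei with a UMI of up to 0.716%, against 8.56% at E19.

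**Figure D4:**
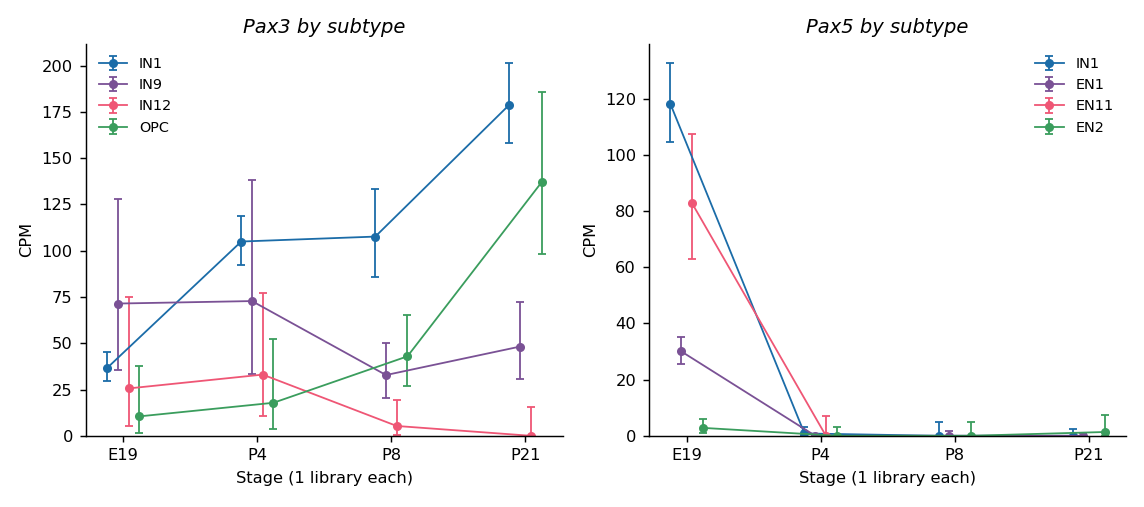
Pax3 (left) and Pax5 (right) by stage (CPM, from 0) in 4 subtypes each; points are single libraries with 20 or more nuclei and bars 95% Poisson intervals. Pax3 in IN1 climbs from 36.7 to 179 CPM. Pax5 in IN1, EN11 and subtype EN1 is high at E19 and at or near 0 in the later libraries shown. For EN11 the only later library shown is P4.

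Neurons with Pax5 at E19 carried other boundary factors. In the 145 neurons with a Pax5 UMI, En1 was 19.6 CPM [12.8 to 28.8] against 4.45 [3.48 to 5.61] in the 2086 without. En2 was 15.9 CPM [9.82 to 24.3] against 5.57 [4.48 to 6.84]. Pax8, a paralogue of Pax5, was 45.3 CPM [34.6 to 58.4] against 0.371 [0.136 to 0.808], and Pax2 8.31 CPM [4.15 to 14.9] against 0.742 [0.383 to 1.30]. The nuclei with Pax5 were deeper, with a median of 9010 against 7176 UMIs. Pax7 was lower in them, at 26.4 CPM against 46.8, and Otx2 was 42.3 CPM against 55.7. These pooled values mix subtypes: within IN1 Otx2 was 50.3 CPM [33.9 to 71.8] with Pax5 and 37.8 [29.2 to 48.0] without, within subtype EN1 17.2 against 8.50, and Pax2 in IN1 was 5.03 against 6.29.

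The values within single subtypes were as follows, and no difference between subtypes was tested. Within IN1, Pax8 was 85.5 CPM [63.6 to 112] with Pax5 and 2.86 [0.929 to 6.67] without, and En2 was 21.8 CPM [11.6 to 37.3] against 5.72 [2.74 to 10.5]. En1 in IN1 was 18.4 CPM with Pax5 and 6.86 without. Pax7 was 26.8 CPM [15.3 to 43.5] there against 27.5 [20.2 to 36.4]. Within subtype EN1, En1 was 23.7 CPM [11.8 to 42.4] against 5.01 [3.18 to 7.52], and the LIM homeodomain factor Lmx1b 17.2 CPM [7.45 to 34.0] against 3.70 [2.16 to 5.93]. En2 was 10.8 CPM against 3.49, and Pax2 had 7 UMIs in these 44 nuclei and 0 in the other 470. In EN11, Pax8 had 7 UMIs in the 10 nuclei with Pax5 and 0 in the other 74. Gad2 was 64.7 CPM in the subtype EN1 nuclei with Pax5 and 23.7 in those without, so an inhibitory marker moved with Pax5 there, and its part was not tested. Slc17a6 was 224 and 279 CPM in the same 2 sets.

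Outside neurons, Pax5 appeared in the class labelled microglia at P21, where the level of 126 CPM came from 1 of 33 nuclei. That nucleus held 14 Pax5 UMIs of 4774 in all, together with 132 UMIs of Ebf1 and 14 of Ighm, both genes of the B cell lineage. It held no UMI of the microglial genes Cx3cr1, Csf1r, P2ry12 or C1qa.

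The engrailed genes were low and early. En1 was 5.87 CPM in inhibitory neurons at E19 (35 UMIs), 5.46 in excitatory neurons (63 UMIs) and 12.96 in astrocytes (12 UMIs). At P21 none of the 3 classes held a UMI, and the E19 level was at least 22.1-fold higher than at P21 in inhibitory neurons and at least 26.6-fold higher in excitatory neurons, with 3 counts per class taken as the floor. En1 did not differ between the 2 neuron classes at E19, with a ratio of 1.07 [0.69 to 1.65]. Among neuron subtypes with 8 or more En1 UMIs at E19, the levels were 11.6 CPM in EN11, 9.81 in IN1, 6.73 in subtype EN1 and 6.59 in subtype EN2.

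En2 was 9.06 CPM in inhibitory neurons, 4.94 in excitatory neurons and 16.2 in astrocytes at E19. At P4 it was 1.10, 0.940 and 4.95 CPM. Inhibitory neurons had 0.632 CPM at P8 and 1.06 at P21. In astrocytes it was 4.84 CPM at P8 and 4.31 at P21. After P4, among classes with 20 or more nuclei, its level was highest in the oligodendrocyte lineage at P21, with 11.5 CPM [7.56 to 16.7] and 27 UMIs in 25 of 306 nuclei. Of these, 23 UMIs lay in 21 of 187 myelinating oligodendrocytes (14.7 CPM). At P8 the lineage had 6.81 CPM [2.21 to 15.9] from 5 UMIs.

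Among inhibitory subtypes Otx1 was highest in IN1, with 14.5 CPM (E19), 12.4 (P4), 1.30 (P8) and 7.34 (P21). IN1 held 82.9% of the inhibitory Otx1 UMIs at E19 and 75.0% at P4. IN3, IN5 and IN7, which were high for Otx2, had 0 to 0.549 CPM of Otx1 on average. IN4, also high for Otx2, had 6.53 CPM of Otx1 on average and up to 11.5 in 1 library. Across 109 units of library and subtype with 30 or more nuclei, the Pearson r of Otx1 with Pax3 was 0.74, and with Otx2 0.30.

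Of the excitatory subtypes, EN11 had the most Otx2. Its level was 50.9 CPM at E19 (21 of 84 nuclei) and 39.0 at P4 (15 of 52). The next excitatory subtype was EN10 at E19 (18.96 CPM) and EN5 at P4 (20.01 CPM, 9 UMIs in 2 nuclei). EN11 had 18 nuclei at P8 and 9 at P21, under the 20 required. In EN11 at E19 the 3 inhibitory markers summed to 145 CPM [94.6 to 212] in nuclei with Otx2 and 78.7 CPM [56.2 to 107] in those without; at P4 the sums were 47.4 and 65.6 CPM. Their part in the Otx2 level was not tested.

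By highest subtype, 2 of the 7 factors peaked in an inhibitory subtype: Pax7 in IN9 (348 CPM, mean over libraries) and Otx2 in IN3. With the P8 or the P21 library left out, these were IN4 and IN7. Pax3 peaked in fibrous astrocytes (511 CPM), followed by protoplasmic astrocytes (469.8 CPM). Otx1 was highest in fibrous astrocytes as well, and En2 in myelinating oligodendrocytes, which had 20 or more nuclei at P21 only. En1 ranked highest in fibrous astrocytes on 5 UMIs. Pax5 ranked highest in the microglia class because of the single nucleus described above, and in EN11 when that nucleus was left out. The EN11 mean covers the E19 and P4 libraries only, and that of IN1 covers 4 libraries. In both of these libraries IN1 was above EN11, with 118 against 82.9 CPM at E19 and 2 UMIs against 0 at P4.

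**Figure D5:**
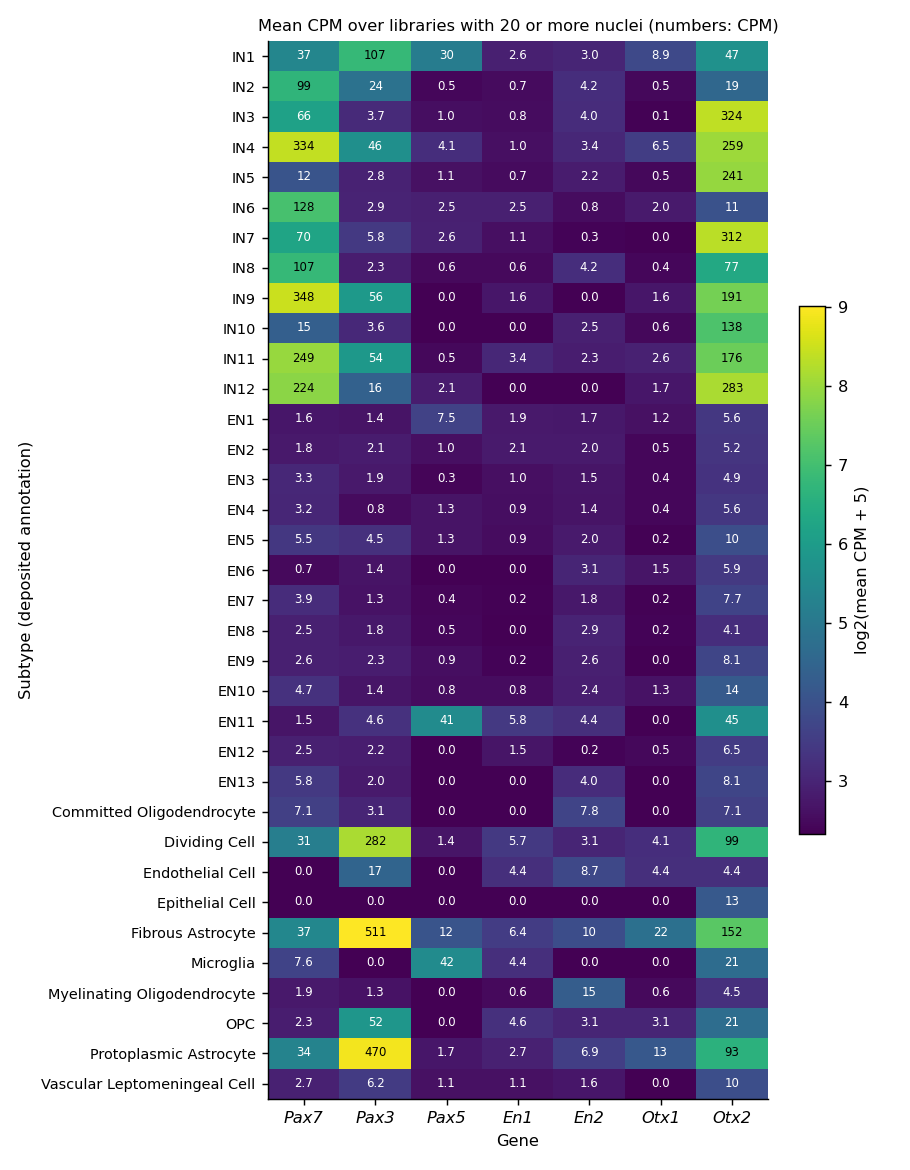
Mean level of the 7 factors (columns) in every subtype with 20 or more nuclei in at least 1 library (rows); printed numbers are CPM averaged over those libraries and colour is log2(mean CPM + 5). Otx2 and Pax7 are high in many inhibitory rows but low in others (Otx2 11.1 in IN6, Pax7 11.8 in IN5). Pax3 is highest in fibrous (511) and protoplasmic (470) astrocytes, and the excitatory rows are low except EN11 for Pax5 and Otx2.

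The genes whose levels followed each factor most closely over the 109 units were as follows. For Pax7 they were Lhx5 (r = 0.81), Gm27199 (0.81), Slc32a1 (0.80), Gad1 (0.80) and Tal1 (0.78). Lhx5 and Tal1 encode transcription factors of inhibitory neurons, and Slc32a1 and Gad1 the vesicular transporter and a synthetic enzyme of GABA. For Otx2 they were Otx2os1 (0.95), Hs3st3b1 (0.85), Gm49156 (0.80), Zfpm2 (0.78) and Gad1 (0.77). For Pax3 they were Rfx4 (0.77), Celrr, Mlc1, Aldh1l1 and Gldc (all 0.75), of which Mlc1, Aldh1l1 and Gldc are known in astrocytes. In the 85 neuron units alone, Pax7 came first for Pax3 (0.62). For Pax5 they were Pax8 (0.66), 9030622O22Rik (0.62), 5033421B08Rik (0.55), En1 (0.55) and Lyve1 (0.53); these units include the microglia at P21, whose Pax5 came from 1 nucleus. In the 85 neuron units the Pax5 list was 9030622O22Rik (0.77), Pax8 (0.73), Calcr (0.63), Six3 (0.62) and Lmx1a (0.56). For Otx1 they were Pax6 (0.75), Pax3 (0.74), Pax6os1 (0.70), Olfr1511 (0.67) and Ccdc190 (0.67). For En1 the list was led by Tmed9 (0.68), Six3 (0.67), Ndufa1 (0.66), Arf5 (0.64) and H2afx (0.63), and for En2 by Hist3h2ba (0.64), Msmo1 (0.63), Tkt (0.62), Fasn (0.62) and Hmgn2 (0.61), both from very few UMIs. The units share libraries and subtypes, so these correlations are descriptions.

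Inhibitory nuclei with and without a Pax7 UMI differed most in genes outside the set. Highest with Pax7 were Nfib (mean log2 ratio over libraries 1.43), St18 (1.37), Rxfp2 (1.19), Nkd2 (1.13), Tmem132d (1.11), Maf (1.08), Boc (1.08), Il1rapl2 (1.05), Thsd4 (1.02) and Stk33 (1.00). Nfib and Maf encode transcription factors. Nfib was 624 CPM with Pax7 and 295 without at E19, 438 and 124 at P4, 292 and 77.1 at P8, and 251 and 121 at P21. Lowest with Pax7 were Ebf3 (-1.95), Ebf1 (-1.63), Nwd2 (-1.53), Glra1 (-1.29) and Erbb4 (-1.06). Ebf3 was 36.6 CPM with Pax7 and 174 without at E19, and 8.09 and 61.2 CPM at P21. These 15 genes were chosen from 6223 by their mean over the same 4 libraries. Their equal direction in each library is therefore partly given by the choice. The nuclei were not weighted to the same subtypes here.

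The wider patterning network was compared between the neuron classes by the same rule, under which 0.449% of all genes were called higher in inhibitory neurons and 0.42% lower. Of 22 genes of the isthmic organiser and its FGF and WNT pathways, 4 reached 5 CPM in all libraries and 1 was called, Dmbx1, a midbrain homeobox gene that was higher in inhibitory neurons (18.0, 14.7, 21.9 and 11.4 CPM against 1.65, 1.28, 1.52 and 0.479). The organiser signal genes Fgf8 and Wnt1 were below 1 CPM in both neuron classes at every stage. The most abundant genes of the list, Lef1, Fgfr2 and Fgfr1, were not called. Of 23 dorsoventral and boundary factors, 7 were tested and 1 was called, Tcf7l2, which was higher in excitatory neurons (880 against 160.2 CPM at E19). Gli3 and Ptch1, the next in abundance, were not called. Of 14 partners and targets of the factors in the tectum, 13 were tested and none was called at 2-fold. Efna5 and Meis2 were among the 3 most abundant of them.

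Genes of neighbouring brain regions were low. Of 14 such markers only Emx2 was tested, and it was called higher in inhibitory neurons (30.9, 18.2, 21.4 and 11.2 CPM against 3.56, 1.28, 0.682 and 0.479). Each of the 6 Hox genes, which mark the hindbrain and spinal cord, was at or below 0.173 CPM in both neuron classes. Among 20 factors of midbrain GABAergic and glutamatergic neurons, 13 were tested. Gata3, Tal1, Sox14, Lhx1 and Lhx5 were called higher in inhibitory neurons, and Pou4f1, Tfap2d, Ebf1, Ebf2, Ebf3 and Etv1 higher in excitatory neurons. The mean log2 ratio was 3.64 for Gata3 and -4.34 for Ebf2, set beside 3.75 for Pax7 and 3.39 for Otx2. The median over all genes tested was 0.052.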

How the data were processed

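Single-nucleus RNA libraries, 1 per stage, were made with the 10x Genomics 3′ v3 chemistry and processed with Cell Ranger 3.0.2 against a pre-mRNA mm10 reference, per the labels' protocols and the submitters' processing notes, so intronic reads entered the counts. The deposited matrix holds raw UMI counts per gene and nucleus. Nucleus filters, doublet removal and strand use: not given in the sources used here; no further filter or doublet caller was applied. Stage, class and subtype came from the deposited table, of which 8 columns of values were not used. The percent of mitochondrial UMIs deposited there did not exceed 5.

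UMIs were summed per library and class or subtype, scaled to CPM and compared as log2 ratios with 5 CPM added, which understates changes of low genes. Units had 20 or more nuclei (30 for correlations). Thinning to 2000 UMIs lost no nucleus (minimum 2355). The calculation was tested on simulated data. Named genes are the 7 members, the 3 most abundant and the called genes of each list, the 5 most alike per member, and the 10 largest and 5 smallest ratios by Pax7 detection. Some genes are not reported here. Members and lists were chosen with earlier results of these data known. Python 3.11.15, numpy 2.4.6, scipy 1.17.1, pandas 2.3.3 and matplotlib were used.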

Additional observations from a re-analysis of the deposited data

Results flagged for a closer look

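The change of Pax3 from E19 to P21 differed in sign between subtypes: the log2 ratio (5 CPM added) was 3.20 in oligodendrocyte precursors and -2.61 in IN12, a difference of 5.81. Of 27 subtypes with 20 or more nuclei at both stages, 3 were higher by 2-fold or more (EN5, IN1 and OPC) and 4 lower (IN12, IN2, IN6 and vascular leptomeningeal cells). The IN12 value goes from 3 UMIs to 0 and the EN5 value from 0 UMIs to 6. The difference was not tested, since each stage had 1 library.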

How the results depend on the processing

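With 20 CPM added in place of 5, the number of members called lower in inhibitory neurons at P21 fell from 4 to 1 and the number called higher in astrocytes at E19 from 5 to 3. The other 41 recomputed counts were within 1.5 times the main count. The members behind a count could change: thinning to 2000 UMIs replaced En2 by Otx1 among those lower at P21, weighting subtypes alike replaced En1 by Otx2, and leaving out IN1 gave Pax7, Pax3 and En2 (3 members). With 20 CPM added, Pax3 was no longer called higher in inhibitory neurons in all 4 libraries (2 members). The number peaking in an inhibitory subtype was 2 with each library left out in turn. Of 228 recomputed single values, 147 stayed within counting error, and no called value changed sign. Leaving out IN1, IN11 at matched subtypes, and the nucleus with most Pax5 were chosen after seeing the data. No paired analysis was possible because each stage has 1 library. The values of En1, En2 and Otx1 in most single subtypes rest on few UMIs, which limits their precision.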
